A study of Mus musculus with 8 samples.

Results

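The genes described here are 10 genes of odontoblast differentiation and mineralization: Alpl, Runx2, Sp7, Dlx3, Dlx5, Dmp1, Dspp, Ibsp, Spp1 and Sparc. They were chosen by name out of the 22609 gene symbols counted in each library, with earlier results of these data known, so counts of calls among them and among the lists below are not those of an unselected set. RNA-seq was carried out on immortalized mouse dental papilla cells of 2 genotypes, iBmp2 fx/fx (floxed Bmp2 alleles) and iBmp2 ko/ko (Bmp2 deleted), written fx/fx and ko/ko from here on. Total RNA of each was sequenced after 6, 24, 48 or 72 h in culture, with 1 library per genotype and time and 8 in all. The design text names 8 h where the labels of the first libraries name 6 h, and the labels were followed. All libraries came from immortalized lines, no separate cultures, clones or donors are named, and no treatment is given beyond the genotype. The study names a calcifying medium for its staining assays and no such medium for the RNA-seq cultures.

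Odontoblasts arise from the dental papilla and secrete the matrix that mineralizes into dentin. Runx2, Sp7 and the Dlx homeodomain factors act in the nucleus of the differentiating cells. Alpl, the tissue-nonspecific alkaline phosphatase, sits on the cell surface and hydrolyses pyrophosphate, an inhibitor of mineral growth. Dspp, Dmp1, Ibsp and Spp1 belong to the SIBLING family, acidic secreted phosphoproteins whose genes lie side by side, and Sparc is a collagen-binding matrix glycoprotein. In dental papilla cells, BMP signals are known to promote this program, and Dspp and Dmp1 mark its late stages.

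The gene counts of a library summed to 25890110 reads at the least and 32415665 at the most. The floor of detection was set at 3 reads, which is 0.0925 to 0.116 CPM (gene reads scaled by the library's total). These floors, and all intervals given below, cover counting error only. The library labelled ko/ko at 24 h stood apart from the others of its label: of 285 other genes called between the genotypes at 6, 48 and 72 h, it lay nearer to the ko/ko mean for 4 (log2 of CPM with an offset of 0.1), and the fx/fx library of 24 h did so for 17. Whether it holds cells of the genotype on its label cannot be settled from these counts, so its comparison with the fx/fx library of 24 h may not be one of genotypes. The comparisons were made on the 6 libraries that leave out the 24 h pair, and repeated with it. The methods of the study do not name that pair. Culture times stood in for replicates, so the spread within a genotype includes any change with time. Read counts of Bmp2 itself are not reported here, so the genotypes were not checked by them. Of the dental mesenchyme markers listed for this work, 9 of 11 were detected well enough for testing, among them Msx1, Pax9, Lhx6, Prrx1 and Twist1, while Barx1 and Lhx8 had at most 1 read in any library.

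Of the 10 genes, Alpl, Runx2, Sp7, Dlx3, Dmp1 and Spp1, 6 genes, had a lower CPM in ko/ko than in fx/fx at each of 6, 48 and 72 h. So did 27.7% of all genes that passed the filter described below, which Dmp1 did not pass. Alpl, Runx2 and Spp1 were also lower in the 24 h pair as labelled, as were 12.2% of all genes at the 4 times together. The windows upstream of the transcription starts of these 3 genes are shown here because, of the 6, they are the ones that passed the filter and have a window in the RefSeq table. The genotype difference of Runx2 and of Spp1 did not pass the test given below. The sequences are the 250 bases before each RefSeq start on the gene's strand, in build GRCm38.p6, whereas the counts were made on mm9. Capitals mark 4 short motifs searched on both strands: TGTGGT, the core bound by RUNX factors, TAATTG, a DLX homeodomain site, GGGCGG, a GC box bound by Sp factors, and TATAAA, the TATA box. The first Alpl window is chr4:137796385-137796634 on the minus strand, the second is chr4:137766476-137766725 on the minus strand, that of Runx2 is chr17:44814628-44814877 on the minus strand, and those of Spp1 are chr5:104434861-104435110 and chr5:104435942-104436191 on the plus strand.
Alpl first start: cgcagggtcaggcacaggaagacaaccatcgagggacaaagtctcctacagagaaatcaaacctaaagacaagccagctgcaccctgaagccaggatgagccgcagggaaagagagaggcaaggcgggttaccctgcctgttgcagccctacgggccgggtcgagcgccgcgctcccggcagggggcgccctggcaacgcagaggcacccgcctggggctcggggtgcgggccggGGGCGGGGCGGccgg
Alpl second start: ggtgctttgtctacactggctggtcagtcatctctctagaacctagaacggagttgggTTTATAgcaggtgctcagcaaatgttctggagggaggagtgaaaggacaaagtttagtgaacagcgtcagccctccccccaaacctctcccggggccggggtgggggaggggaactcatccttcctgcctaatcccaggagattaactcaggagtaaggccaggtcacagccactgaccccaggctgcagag
Runx2: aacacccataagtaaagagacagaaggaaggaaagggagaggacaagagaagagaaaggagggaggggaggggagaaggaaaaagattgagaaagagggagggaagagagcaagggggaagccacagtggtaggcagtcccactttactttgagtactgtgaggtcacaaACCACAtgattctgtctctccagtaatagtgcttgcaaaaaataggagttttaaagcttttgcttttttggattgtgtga
Spp1 first start: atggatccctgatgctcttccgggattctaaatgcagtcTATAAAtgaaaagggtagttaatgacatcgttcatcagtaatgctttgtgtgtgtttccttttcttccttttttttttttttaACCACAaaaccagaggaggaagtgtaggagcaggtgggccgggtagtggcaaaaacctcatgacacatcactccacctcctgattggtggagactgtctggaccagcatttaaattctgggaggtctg
Spp1 second start: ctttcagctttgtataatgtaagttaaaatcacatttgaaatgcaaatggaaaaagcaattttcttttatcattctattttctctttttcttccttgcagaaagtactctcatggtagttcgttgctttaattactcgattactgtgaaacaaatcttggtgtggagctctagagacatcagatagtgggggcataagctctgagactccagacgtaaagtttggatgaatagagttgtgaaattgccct

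The first Alpl window held 2 GC boxes that share a base, 15 and 10 bases before the start, and the second held a TATAAA on the reverse strand 192 bases before it. The RUNX core was found on the reverse strand (ACCACA) 80 bases before the Runx2 start and 128 bases before the first Spp1 start, and Spp1 also had a TATAAA 211 bases before it. The RUNX core is in 14.0% of the 32851 RefSeq windows of the same length, the GC box in 32.7%, the TATAAA in 12.4% and the DLX site in 7.17%. Among the other members with a window, 1 of the 2 Dmp1 windows held a RUNX core 164 bases before the start, and Ibsp a DLX site and a TATAAA 198 and 28 bases before it. The Sparc window and the second Spp1 window held none of the 4 motifs. In all, 6 of the 10 genes matched the RefSeq table, in 9 windows, and Sp7, Dlx3, Dlx5 and Dspp were the others. A match is a description of the letters and not evidence of binding.

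**Figure D1:**
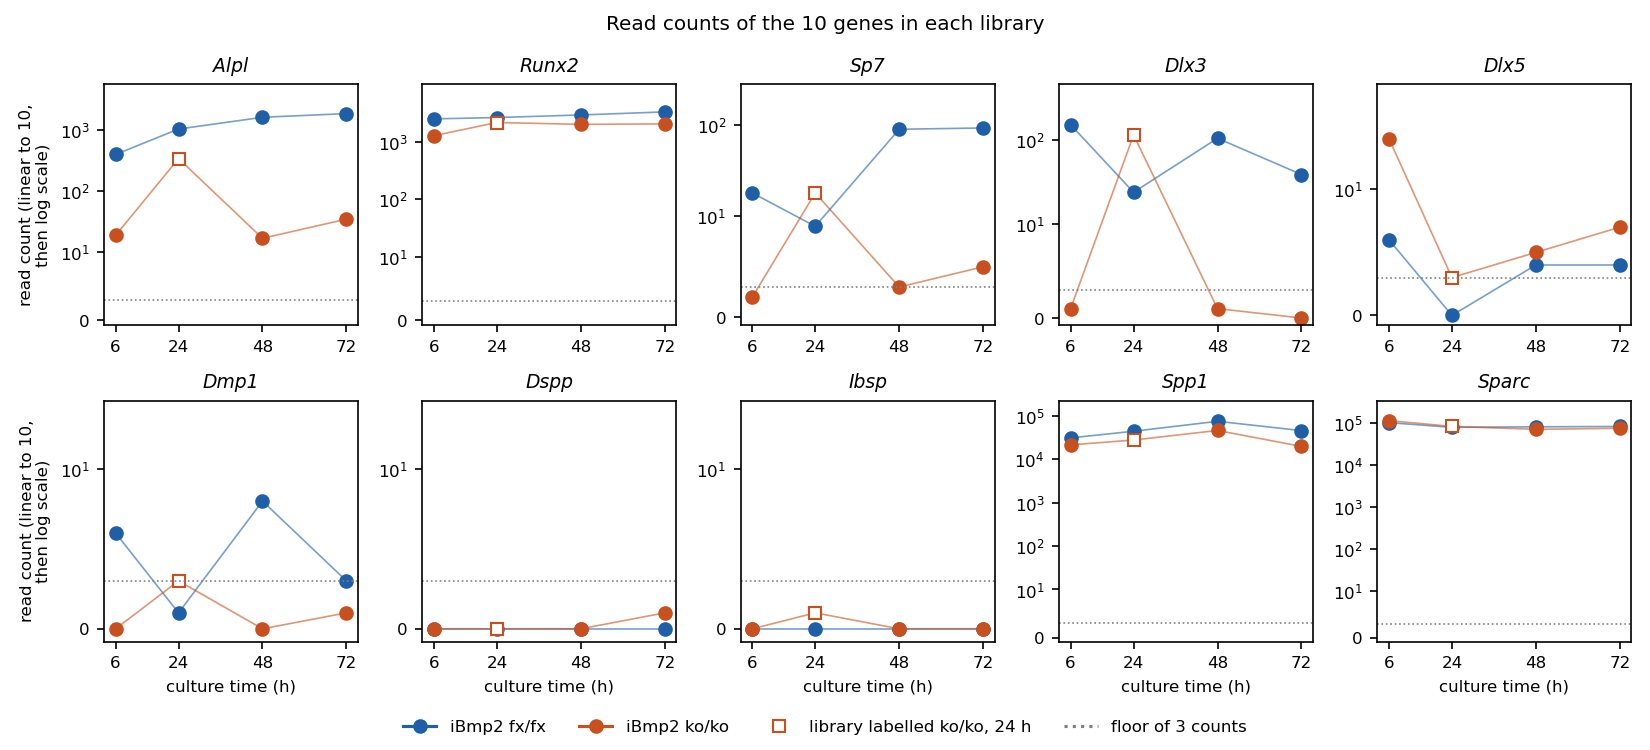
Read counts (vertical axis, linear up to 10 and logarithmic above) against culture time in hours for each of the 10 genes, with fx/fx libraries in blue, ko/ko libraries in orange, the library labelled ko/ko at 24 h as an open square and the floor of 3 counts as a dotted line. Alpl, Sp7 and Dlx3 were lower in ko/ko at 6, 48 and 72 h, the order of Sp7 and Dlx3 was the opposite at 24 h, and Dspp and Ibsp had at most 1 read anywhere.

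To ask whether the genotypes differ, the counts were compared over the 6 libraries with edgeR's quasi-likelihood test, and p-values were adjusted by Benjamini-Hochberg over all 13121 genes that passed the filter on low counts. A gene was called at the adjusted limit when its adjusted p did not exceed 0.05 and its absolute log2 fold change reached 1, and at the unadjusted limit with an unadjusted p under 0.05 and an absolute log2 fold change above 1. Of the 10 genes, 6 passed the filter. Among these, Alpl and Dlx3 fell at the adjusted limit, 2 genes, where 2.19% of all genes tested were called and 1.29% were called as lower. Sp7 joined them at the unadjusted limit, where 7.35% of all genes were called, 4.04% as lower and 3.31% as higher. Sp7 and Dlx3 passed the filter, which lies near 0.324 CPM, only through the fx/fx libraries, and with fx/fx as low as ko/ko they would not have been tested. Over all 8 libraries none of the 10 genes was called at the adjusted limit, and 0 of 13053 genes were (edgeR's quasi-likelihood test, 463 genes or 3.55% at the unadjusted limit). Alpl and Sp7 were among those 463, with log2 fold changes of -3.39 and -2.69 and unadjusted p-values of 0.00873 and 0.0154 in that test. In 7 libraries, without the library labelled ko/ko at 24 h, Alpl and Dlx3 were again called, with 3.12% of all genes.

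Alpl (mm9 chromosome 4, 137297648 to 137352299, minus strand) showed the strongest difference among the members with ample reads. The fx/fx libraries held 403, 1053, 1641 and 1887 Alpl reads at 6, 24, 48 and 72 h, and the libraries labelled ko/ko held 19, 345, 17 and 35. At 6, 48 and 72 h the ko/ko libraries lay far below every fx/fx library, while the library labelled ko/ko at 24 h, with 13.3 CPM, overlapped the low end of the fx/fx range (13.0 CPM at 6 h). The level was 41.3 ± 25.0 CPM for fx/fx against 0.851 ± 0.436 CPM for ko/ko (SD, n = 3). The log2 fold change was -5.61 with an SE of 0.72 (adjusted p = 0.0153, edgeR's quasi-likelihood test). In bulk RNA, fewer cells that express a gene and less RNA per cell cannot be told apart.

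By culture time, the fx/fx library had 20.1-fold more Alpl than its ko/ko counterpart at 6 h (95% interval 12.7 to 33.6), 91.1-fold more at 48 h (56.7 to 157) and 44.6-fold more at 72 h (31.9 to 64.2). At 24 h the same ratio was 2.80 (2.47 to 3.17), so the direction was the same in the pair as labelled and the size was not. Over all 8 libraries the log2 fold change of Alpl was -3.39 with an SE of 1.02 (adjusted p = 0.483, edgeR's quasi-likelihood test). Leaving out the 48 h fx/fx library, the 6 h ko/ko library or the 48 h ko/ko library ended the call of Alpl, with adjusted p-values of 0.0746, 0.0763 and 0.104 in the same test and log2 fold changes of -5.46, -5.43 and -5.37.

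The genes closest to Alpl in pattern were sought over the 8 libraries as those with the smallest root mean square difference of log2 CPM after centring each gene on its mean. They were Fam19a5, Pcdh7, Notum, Shisa7 and Bai1, with differences of 0.646, 0.658, 0.677, 0.729 and 0.806 on the log2 scale among 13052 genes. Notum, a secreted enzyme that removes the lipid from Wnt proteins, had 321, 259, 875 and 686 reads in the fx/fx libraries and 18, 228, 19 and 25 in the libraries labelled ko/ko. Pcdh7, a protocadherin, had 827, 980, 1371 and 1290 reads against 27, 654, 51 and 40. Being chosen by that pattern, all 5 genes shared with Alpl a high level in the library labelled ko/ko at 24 h and low levels in the other 3 libraries of that label. The likeness rests on the same 8 libraries for every gene and says nothing of shared control.

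**Figure D2:**
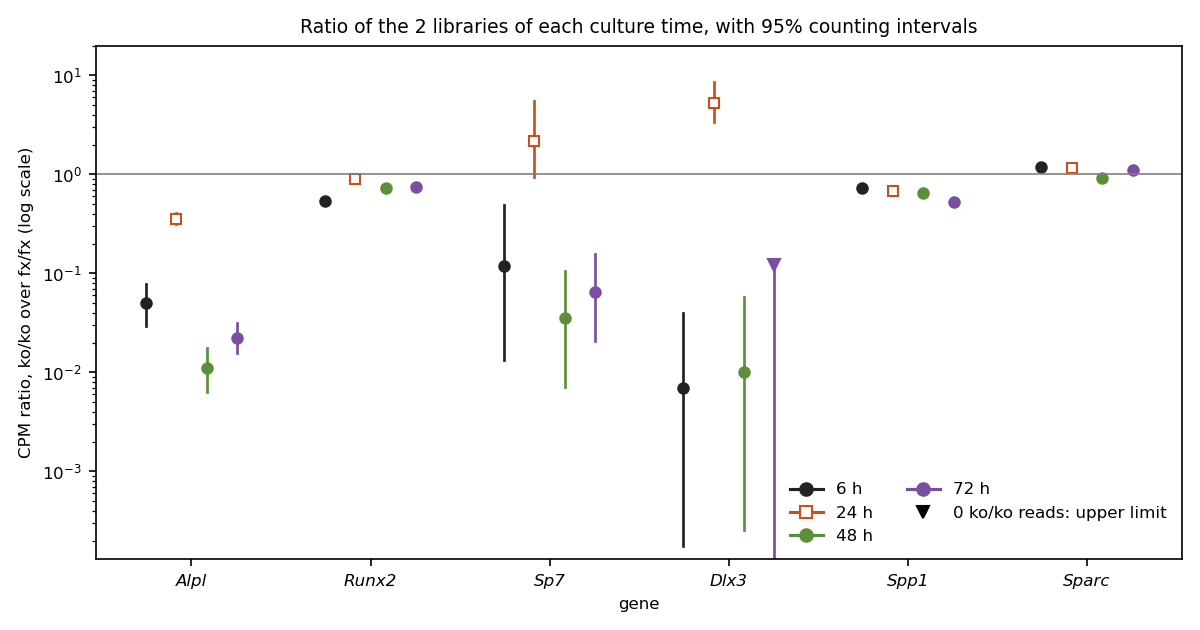
CPM ratio of the library labelled ko/ko over the fx/fx library (vertical axis, log scale) for the 6 tested genes, with 1 symbol per culture time, 95% exact counting intervals as bars and the 24 h pair as open squares. The 24 h ratios of Sp7 and Dlx3 were above 1 (2.18 and 5.23), and the interval of Sp7 included 1. Their ratios at the other times were at most 0.118.

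The transcription factors differed among themselves. Runx2, the runt-domain factor that starts the osteoblast and odontoblast lineage (mm9 chromosome 17, 44632936 to 44951746, minus strand), was abundant in every library. The fx/fx libraries held 2497, 2635, 2922 and 3303 Runx2 reads at 6, 24, 48 and 72 h, and the libraries labelled ko/ko held 1274, 2159, 2005 and 2042. The groups did not overlap in CPM at 6, 48 and 72 h, as was the case for 19.3% of the genes tested (10.5% with ko/ko lower), and they overlapped once the 24 h pair was added, where 3.51% of genes did not. The level was 92.0 ± 12.7 CPM for fx/fx against 62.6 ± 17.9 CPM for ko/ko (SD, n = 3). The log2 fold change of -0.55, with an SE of 0.26, did not pass the test (adjusted p = 0.425, edgeR's quasi-likelihood test).

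The 2 libraries of each time moved in parallel around their genotype means, so a fit with time as a block was made as well, in which Runx2 had a log2 fold change of -0.58 with an SE of 0.12 (adjusted p = 0.0154, edgeR's quasi-likelihood test), still under the fold limit. With the block over all 8 libraries it was -0.49 (adjusted p = 0.112 in that test, with 0.283% of all genes called). The ratio of ko/ko over fx/fx CPM was 0.540 (6 h), 0.894 (24 h), 0.727 (48 h) and 0.747 (72 h), so it was below 1 at 6, 48 and 72 h and also in the 24 h pair as labelled. The lncRNA Gm10497 lies within Runx2 on the opposite strand, and 519 of its 792 exonic bases are also exonic in Runx2. It had 188, 143, 171 and 235 reads in the fx/fx libraries and 103, 122, 134 and 165 in the libraries labelled ko/ko. The strand setting of the counting is not given, so reads of Gm10497 and of Runx2 in these bases cannot be told apart.

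Sp7, the zinc-finger factor osterix that acts downstream of Runx2 (mm9 chromosome 15, 102187040 to 102197285, minus strand), was low in all libraries. Its counts were 18, 9, 90 and 93 in the fx/fx libraries (6, 24, 48 and 72 h in order) and 2, 18, 3 and 5 in the libraries labelled ko/ko. At 24 h the order was the opposite of that at the other 3 times, and the fx/fx library of 24 h held the fewest Sp7 reads of its genotype. The 24 h ratio of ko/ko over fx/fx CPM was 2.18, and its 95% interval, 0.931 to 5.52, included 1. The level was 2.11 ± 1.33 CPM against 0.120 ± 0.0653 CPM (SD, n = 3), and over the summed reads of 6, 48 and 72 h the fx/fx cells had 18.2-fold more (95% interval 9.70 to 38.5).

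The log2 fold change of Sp7 was -4.12 with an SE of 0.79, and it lay just outside the adjusted limit (adjusted p = 0.0505, edgeR's quasi-likelihood test). With time as a block it was -4.06 and passed (adjusted p = 0.000834), and over all 8 libraries it was -2.69 and did not (adjusted p = 0.483). The block raised the number of genes called from 287 to 1109, or 8.45% of those tested. Sp7 was called as well without the 6 h fx/fx library (log2 fold change -4.59, adjusted p = 0.0363), in DESeq2 (8.1e-05), with library size only (0.0492) and with no filter (0.0307). Over its 14 alternatives, the adjusted p of Sp7 ranged from 8.1e-05 to 0.483.

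Dlx3, a homeodomain factor of tooth, hair and bone whose gene lies at mm9 chromosome 11, 94981403 to 94986610 (plus strand), was nearly absent from the ko/ko cells outside 24 h. Its counts were 152, 24, 105 and 39 in the fx/fx libraries (6, 24, 48 and 72 h in order) and 1, 115, 1 and 0 in the libraries labelled ko/ko. The library labelled ko/ko at 24 h thus held as many Dlx3 reads as an fx/fx library, and 5.23 times the CPM of the fx/fx library of 24 h (95% interval 3.35 to 8.49). At 72 h the ko/ko library had no Dlx3 read, which allows up to 0.116 CPM.

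Summed over 6, 48 and 72 h, 296 Dlx3 reads in the fx/fx cells stood against 2 in the ko/ko cells, a ratio of 134 (95% interval 36.8 to 1112). The fitted log2 fold change was -6.83 with an SE of 0.83 (adjusted p = 0.0130, edgeR's quasi-likelihood test), and DESeq2 gave -7.08 (adjusted p = 3.82e-07). In limma, on log2 RPKM with an offset of 0.1, which pulls low values together, it was -3.40 (adjusted p = 0.0175). Over all 8 libraries it was -1.22 with an SE of 1.37 (adjusted p = 0.748, edgeR). Leaving out the 48 h fx/fx library or the 6 h or 48 h ko/ko library ended the call of Dlx3 at the adjusted limit, with adjusted p-values of 0.0746, 0.0636 and 0.0932 in edgeR. Its log2 fold changes were then -6.80, -7.14 and -7.13, and it stayed past the unadjusted limit each time.

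Dlx5, the related factor at mm9 chromosome 6 (6827805 to 6832085, minus strand), did not pass the filter. It had 6, 0, 4 and 4 reads in the fx/fx libraries (6, 24, 48 and 72 h in order) and 28, 3, 5 and 7 in the libraries labelled ko/ko. Apart from the 6 h ko/ko library, all libraries were within a few reads of the floor. The summed ratio of ko/ko over fx/fx at 6, 48 and 72 h was 3.16 (95% interval 1.68 to 6.28), with 28 of the 40 ko/ko reads in the 6 h library. At 48 h alone it was 1.32 (0.285 to 6.68) and at 72 h alone 2.12 (0.538 to 9.86), so neither of these intervals excluded 1. Without the filter edgeR gave Dlx5 a log2 fold change of 1.60 with an adjusted p of 0.446. Its neighbour Dlx6 had 1 read in 1 library, the 48 h ko/ko library, and 0 in the other 7.

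**Figure D3:**
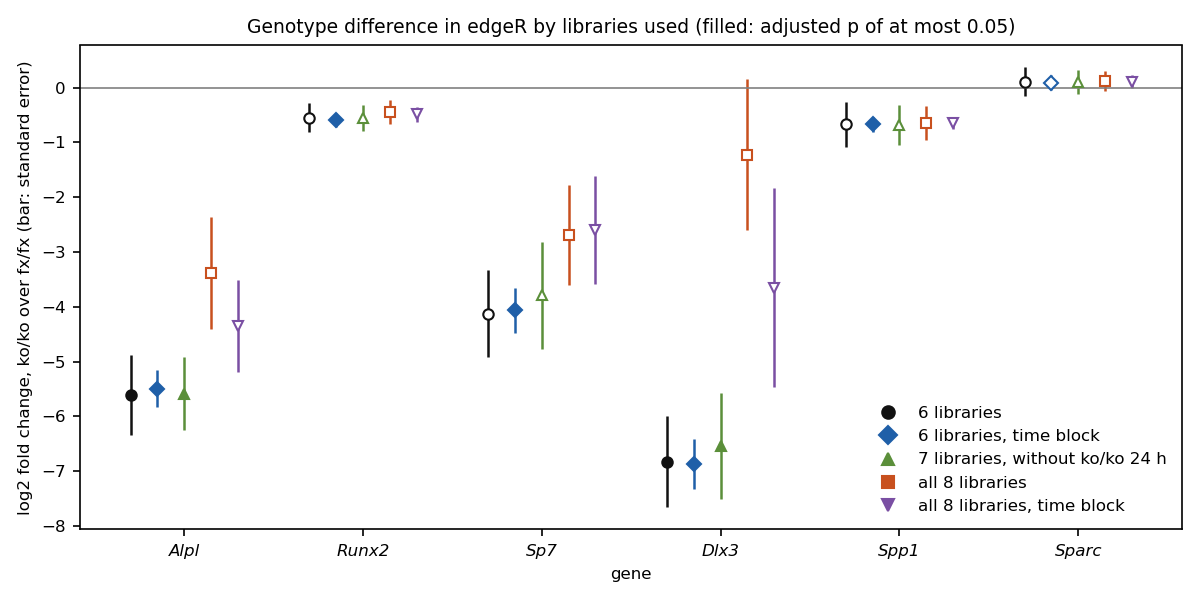
Log2 fold change of ko/ko over fx/fx (vertical axis) with its standard error for the 6 tested genes in 5 edgeR fits that differ in the libraries used and in a block for culture time, filled where the adjusted p was at most 0.05. Alpl and Dlx3 were filled in the 3 fits without the library labelled ko/ko at 24 h and open in both fits with all 8 libraries, and Sparc was open in all 5.

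The 4 SIBLING genes among the members lie in the same orientation on mm9 chromosome 5, in the order Dspp, Dmp1, Ibsp and Spp1, and Mepe, a further family member, lies between Ibsp and Spp1. Dspp, the precursor of the dentin sialoprotein and phosphoprotein (104599731 to 104609146), had 1 read in the 72 h ko/ko library and 0 in the other 7. Ibsp, bone sialoprotein (104728190 to 104740488), had 1 read in the library labelled ko/ko at 24 h and 0 in the other 7. Mepe had 0 reads in all 8 libraries. For these 3 genes, neither genotype was above the floor of 3 reads at any time, so no difference was detectable at this depth.

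Dmp1, an acidic phosphoprotein of odontoblasts and osteocytes (104631632 to 104643121), was close to the floor. It had 6, 1, 8 and 3 reads in the fx/fx libraries (6, 24, 48 and 72 h in order) and 0, 3, 0 and 1 in the libraries labelled ko/ko. The fx/fx libraries of 6 and 48 h were above the floor, and no library labelled ko/ko was. Over the sums of 6, 48 and 72 h, 17 reads stood against 1, a ratio of 15.4 with a wide 95% interval of 2.41 to 643. Dmp1 failed the filter, and without the filter edgeR gave a log2 fold change of -3.53 with an SE of 1.08, past the unadjusted limit (unadjusted p = 0.00974) and not the adjusted one (adjusted p = 0.195).

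Spp1, osteopontin, a phosphoprotein that binds mineral and integrins (104864137 to 104870069), was by contrast among the members with the most reads. The fx/fx libraries held 30849, 43831, 74247 and 45386 Spp1 reads at 6, 24, 48 and 72 h, and the libraries labelled ko/ko held 21245, 27537, 45691 and 19612. Within each pair, that of 24 h as labelled included, the ko/ko library was the lower, with CPM ratios of 0.729, 0.686, 0.652 and 0.522, but the groups overlapped, and both were highest at 48 h. The level was 1577 ± 658 CPM for fx/fx against 992 ± 435 CPM for ko/ko (SD, n = 3).

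The log2 fold change of Spp1 was -0.67 with an SE of 0.41 and did not pass the test (adjusted p = 0.541, edgeR's quasi-likelihood test). With time as a block the SE was 0.14 and the adjusted p 0.0135 over 6 libraries, and 0.12 and 0.0774 over all 8, with log2 fold changes of -0.67 and -0.64 under the fold limit. The 24 h pair gave Spp1 the same direction and a similar ratio, unlike Dlx3, and unlike Sp7, whose 24 h interval included 1. Left out in turn, the 48 h libraries moved the value most, to -0.32 without that of fx/fx and to -1.09 without that of ko/ko.

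**Figure D4:**
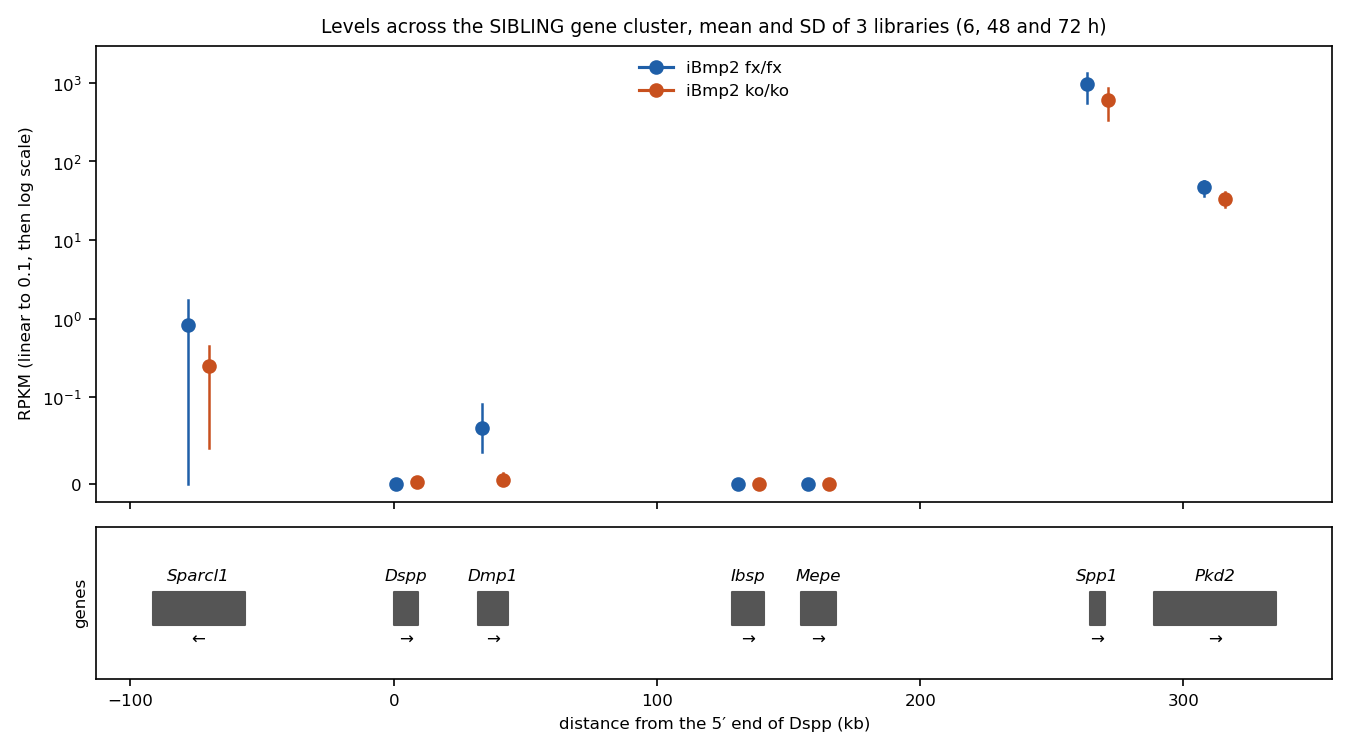
Mean RPKM (CPM divided by the exonic length in kilobases) with SD over the 3 libraries of 6, 48 and 72 h, in fx/fx (blue) and ko/ko (orange) cells, at the position of each gene of the SIBLING cluster and its flanking genes Sparcl1 and Pkd2, with the horizontal axis in kilobases from the 5′ end of Dspp and arrows for the strand. Spp1 stood at 957 and 602 RPKM, while Dspp, Dmp1, Ibsp and Mepe were each below 0.1.

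Sparc, the collagen-binding glycoprotein at mm9 chromosome 11 (55208002 to 55233582, minus strand), had 101697, 78693, 80875 and 82402 reads in the fx/fx libraries and 113406, 82662, 70559 and 74745 in the libraries labelled ko/ko. The ko/ko library was the higher of the pair at 6, 24 and 72 h and the lower at 48 h. The level was 2799 ± 414 CPM against 3018 ± 785 CPM (SD, n = 3), which gave a log2 fold change of 0.11 with an SE of 0.26 (adjusted p = 0.902, edgeR's quasi-likelihood test). The sign turned to -0.0849 when the 6 h ko/ko library was left out.

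Compared per length as RPKM, the members fell into steps. Over the 4 fx/fx libraries Spp1 (602 to 1390 RPKM) and Sparc (741 to 971) overlapped at the top. Runx2 (9.09 to 11.9) and Alpl (3.21 to 14.95) overlapped next, followed by Dlx3 (0.321 to 1.85) and Sp7 (0.104 to 0.976), which also overlapped. Dlx5 and Dmp1 were at most 0.136 RPKM, and Dspp and Ibsp had no read. In the ko/ko libraries of 6, 48 and 72 h, Sparc (685 to 1146) and Spp1 (439 to 906) were again at the top and Runx2 (4.91 to 8.92) was next. Dlx5 (0.115 to 0.670) then overlapped with Alpl (0.138 to 0.335), which overlapped with Runx2 in the fx/fx libraries, and Sp7 and Dlx3 were at most 0.0635 and 0.0129 RPKM.

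Across culture time, the slope on log2 hours was tested in edgeR over the 6 libraries with the genotype as a further term. For slopes and their differences the adjusted limit was an adjusted p of no more than 0.05, with no limit on their size. Per doubling of time, Alpl had a slope of 0.48 (SE 0.14), Sp7 of 0.62 (0.15) and Runx2 of 0.18 (0.05) on the log2 scale, with unadjusted p-values of 0.0124, 0.00485 and 0.0146. None passed the adjusted limit (adjusted p = 0.197, 0.180 and 0.199, edgeR's quasi-likelihood test), at which 0.0% of the 13121 genes were called, while 2775 genes, 21.1%, had an unadjusted p under 0.05. Without the 6 h fx/fx library the slope of Alpl was 0.24 and that of Sp7 0.37, with unadjusted p-values of 0.216 and 0.193. Without the 6 h ko/ko library that of Runx2 was 0.12, with an unadjusted p of 0.171. DESeq2 called 986 genes, 7.51%, at the adjusted limit, among them Alpl and Sp7 (adjusted p = 0.0157 and 0.0459). The slopes of Dlx3, Spp1 and Sparc were -0.37, 0.22 and -0.11, with unadjusted p-values of 0.0705, 0.115 and 0.149.

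Alpl CPM at 72 h was 4.65 times that at 6 h in the fx/fx cells (95% counting interval 4.17 to 5.19) and 2.09 times in the ko/ko cells (1.16 to 3.87). For Sp7 these ratios were 5.13 (3.08 to 9.04) and 2.84 (0.465 to 29.8), the latter from 2 and 5 reads. Runx2 had ratios of 1.31 and 1.82, and Dlx3 was at 0.255 of its 6 h level in the fx/fx cells (0.175 to 0.364). Spp1 peaked at 48 h in both genotypes, at 2290 and 1494 CPM. Whether the slope differed between the genotypes was tested as an interaction, and no member had an unadjusted p under that of Alpl, 0.117 (slope difference -0.43, SE 0.22). In this test 0 genes were called at the adjusted limit by edgeR and by DESeq2, and 63 genes, 0.48%, had an unadjusted p under 0.05 in edgeR.

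Related genes were taken from lists of the same pathways. Of 22 other mineralization genes measured, 15 passed the filter and none was called at the adjusted limit (2.19% of all genes), with 1 at the unadjusted limit (7.35%) and 1, as higher, at the adjusted limit with time as a block (3.78% higher). Their median log2 fold change was 0.05 against 0.03 over all genes tested. Omd, an osteoblast proteoglycan, had the highest value (1.83, adjusted p = 0.177) and Bglap, osteocalcin, the lowest (-1.13, adjusted p = 0.558) among those tested. Bglap2, a further osteocalcin gene, did not pass the filter and had 7, 26, 68 and 25 reads in the fx/fx libraries and 1, 3, 1 and 1 in the libraries labelled ko/ko. Bglap3, also listed, was not among the symbols counted. Phospho1, the phosphatase that supplies phosphate inside matrix vesicles, was at 7.56 ± 2.89 and 6.86 ± 1.28 CPM (SD, n = 3), and its log2 fold change was -0.13. Ank, the pyrophosphate exporter, and Slc20a1, a phosphate transporter, had log2 fold changes of -0.87 and -0.67 (adjusted p = 0.142 and 0.199, edgeR's quasi-likelihood test).

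Of 16 genes for processing the SIBLING proteins and for matricellular proteins, 13 passed the filter, 1 rose at the adjusted limit, beside 0.899% of all genes, and none fell. The gene was Fam20a, a secreted pseudokinase that activates the SIBLING kinase Fam20c. It stood at 9.42 ± 2.21 CPM for fx/fx against 29.3 ± 2.64 CPM for ko/ko (SD, n = 3), a log2 fold change of 1.64 (adjusted p = 0.0190, edgeR's quasi-likelihood test). Fam20c itself had a log2 fold change of 0.23 (adjusted p = 0.808). The lowest value was that of Smoc1, a relative of Sparc, at -3.18 (adjusted p = 0.0936, edgeR). Smoc1 passed the filter only through the fx/fx libraries, with 4.19 ± 1.44 CPM against 0.457 ± 0.474 CPM in ko/ko (SD, n = 3). With time as a block 1 gene of the list fell and 2 rose, beside 4.67% and 3.78% of all genes.

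Among 25 other transcription factors of the lineage, 21 passed the filter, 1 fell and 1 rose at the adjusted limit, beside 1.29% and 0.899% of all genes, with a median log2 fold change of -0.205. Runx3 fell from 41.5 ± 5.11 to 11.2 ± 3.47 CPM (log2 fold change -1.89, adjusted p = 0.0219), and Runx1 was at -0.17 (adjusted p = 0.882). Zfp521, a zinc-finger protein that binds Runx2 and restrains it, rose from 0.549 ± 0.0507 to 13.5 ± 4.48 CPM (SD, n = 3), and its log2 fold change was 4.60 (adjusted p = 0.00427, edgeR's quasi-likelihood test). Dlx2 had the lowest value of the list, -2.55 (adjusted p = 0.118). In the fit with time as a block, 4 fell and 3 rose, where 4.67% and 3.78% of all genes did.

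All 12 BMP target genes passed the filter, and 4 fell at the adjusted limit (1.29% of all genes), Id4, Smad6, Smad9 and Hey1, with log2 fold changes of -3.55, -2.84, -3.45 and -6.42. Hey1 passed the filter only through the fx/fx libraries (760, 958 and 519 reads at 6, 48 and 72 h against 13, 3 and 7). So did Nog, at 6.97 ± 4.38 CPM in fx/fx against 0.325 ± 0.394 CPM in ko/ko (SD, n = 3). At the unadjusted limit 10 were lower, Hey1 and Nog among them, where 4.04% of all genes were. Bambi, a decoy receptor, was higher by 1.65 on the log2 scale, and the list's median, with Hey1 and Nog in it, was -2.52. The list was chosen with earlier results of these data known, and Id2, Id3 and Smad7 are genes the study picked from these libraries, so the direction of the list is not independent evidence. The summed level of the 12 genes was 2011 to 2382 CPM in the fx/fx libraries and 284 to 705.5 CPM in the ko/ko libraries of 6, 48 and 72 h, and 1993 CPM in the library labelled ko/ko at 24 h. With the block 10 fell and 1 rose, beside 4.67% and 3.78% of all genes. In all 4 lists, none was called over all 8 libraries.

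**Figure D5:**
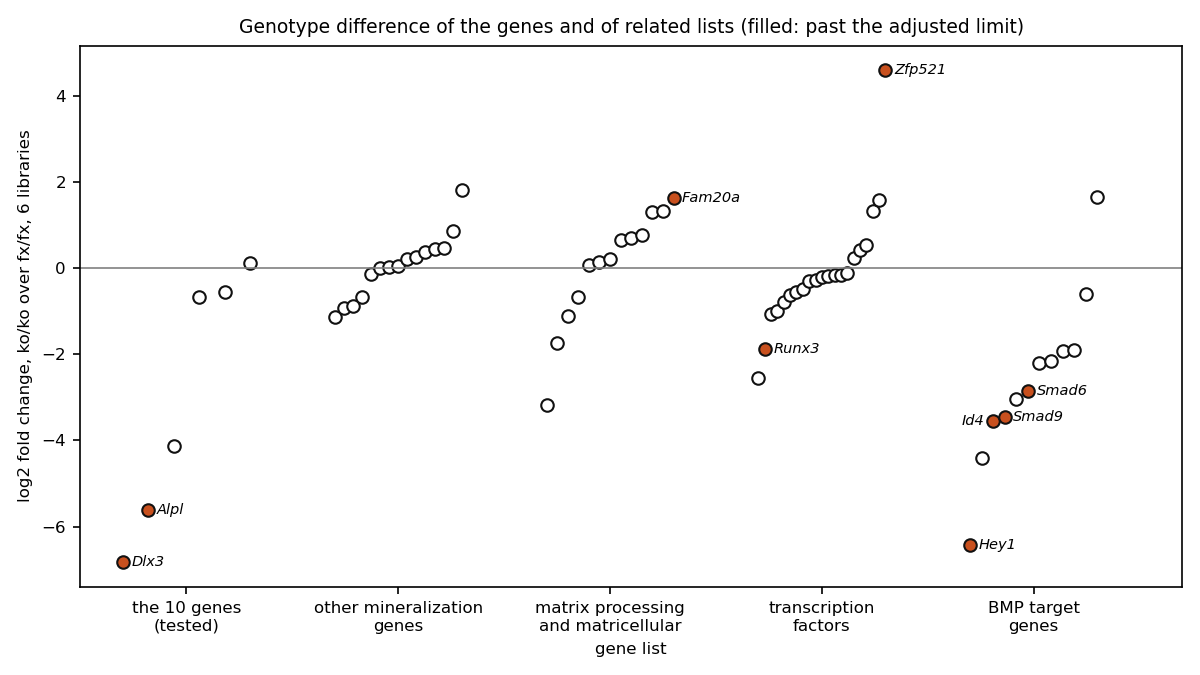
Log2 fold change of ko/ko over fx/fx in edgeR over the 6 libraries (vertical axis) for the 6 tested members and for the tested genes of 4 related lists (horizontal axis), each point a gene, ordered by value within its list and filled with its name where it passed the adjusted limit. The BMP target genes had a median of -2.52 and the other mineralization genes one of 0.05.

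Markers of other cell types ranged from no reads to levels above those of some members, with Fabp4 at 25.0 ± 12.3 and Cd68 at 6.87 ± 4.79 CPM in the fx/fx libraries of 6, 48 and 72 h (SD, n = 3). Of 9 ameloblast and epithelial markers, 6 were at or below 3 reads in every library, Amelx, Ambn and Enam among them, and their summed level was 0.777 to 1.86 CPM in the fx/fx libraries and 0.348 to 0.919 CPM in the ko/ko libraries of 6, 48 and 72 h. The summed endothelial markers were at 1.89 to 3.41 and 1.51 to 3.66 CPM, with Emcn at 0 in all libraries, and the chondrocyte markers at 2.47 to 3.06 and 0.915 to 2.24 CPM, with Col9a1 at 0. The leukocyte markers, mainly Cd68, were at 4.34 to 14.2 and 2.78 to 3.56 CPM, with Ptprc at no more than 2 reads. The adipocyte markers, mainly Fabp4, were at 12.3 to 36.8 and 4.87 to 19.3 CPM, with Lep at 0 and Adipoq at no more than 2 reads. Of these 29 markers, 8 were tested and none was called at the adjusted limit. At the unadjusted limit, where 4.04% of all genes were lower and 3.31% higher, Krt14, Kdr, Cd68, Csf1r and Col2a1 were lower and Tek was higher. Krt14 and Csf1r passed the filter only through the fx/fx libraries, with 0.412 ± 0.271 and 0.417 ± 0.175 CPM in ko/ko (SD, n = 3). With fx/fx as low as ko/ko they would not have been tested, here or with the block below. With time as a block, where 4.67% of all genes fell and 3.78% rose at the adjusted limit, 1 epithelial, 1 endothelial, 2 leukocyte, 1 chondrocyte and 1 adipocyte marker fell and 1 endothelial marker rose. Their part in the values of the 10 genes was not tested.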

How the data were processed

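A single total RNA library per genotype (iBmp2 fx/fx, iBmp2 ko/ko) and culture time was sequenced. Per the labels, the authors aligned the reads to mm9 with TopHat2 2.0.8b (base calls from CASAVA 1.8.2) and counted them with HTSeq, and the deposited values are raw read counts per gene and lncRNA symbol. The HTSeq version, annotation and strand setting are not given in the sources used here. The 5 summary rows of each file, 52.0 to 59.0% of its total, were left out.

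The members and lists were chosen with earlier results of these data known. Counts were tested in R 4.3.3 with edgeR 4.0.16 (TMM, filter at 10 counts and 15 in total, quasi-likelihood test, Benjamini-Hochberg adjustment over all genes tested). Standard errors were taken from the fold change and its F value. The alternatives were all 8 libraries, 7 libraries, culture time as a block, DESeq2 1.42.0, limma 3.58.1 on log2 RPKM with an offset of 0.1, library size only, all genes unfiltered, a minimum of 10 counts per library, hours in place of log2 hours, and each library left out. Culture times pair the libraries by their labels, and the deviations of the 2 libraries of a time from their genotype means were correlated across genes at 0.713, 0.536 and 0.840 for 6, 48 and 72 h. CPM used the reads counted on genes and RPKM the exonic length in GENCODE M1 on mm9, which matched 95.7% of symbols. The intervals of ratios of 2 libraries are exact 95% binomial intervals.

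The genes named are the 10 members and, from each list, those past the adjusted limit and those with the highest and lowest value, besides the nearest genes in pattern to Alpl and neighbours on the genome. Genes given as examples within lists (Phospho1, Ank, Slc20a1, Bglap2, Fam20c, Runx1 and single markers) were chosen after their values were seen. Simulated counts with set changes were used to test the scripts. Summaries used Python 3.11.15, numpy 2.4.6, pandas 2.3.3, scipy 1.17.1 and matplotlib 3.10.9.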

Additional observations from a re-analysis of the deposited data

Results flagged for a closer look

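In the lncRNA counts, which the comparisons do not use, 2 transcripts near members had a library labelled ko/ko with more than 3 reads and more than every fx/fx library. The symbols A730090H04Rik and Dlx6os1, described below, are also in the gene counts from which the comparisons were made. 9530072K05Rik (mm9 chromosome 17, 44847171 to 44850874, plus strand) lies within Runx2 on the opposite strand and shares 0 exonic bases with it. It had 28, 12, 18 and 15 reads in the fx/fx libraries (6, 24, 48 and 72 h in order) and 4, 20, 41 and 15 in the libraries labelled ko/ko, the highest being the 41 reads of 48 h. A730090H04Rik (chromosome 11, 95006367 to 95020361, plus strand), within 50000 bases of Dlx3, had 6, 6, 9 and 5 reads against 1, 10, 4 and 1. Its highest count, 10, was in the library labelled ko/ko at 24 h, the library in which Dlx3 had 115 reads. Dlx4 (95001770 to 95007577, minus strand), with 25 reads in that library, lies nearer and overlaps A730090H04Rik on the opposite strand. A link of A730090H04Rik with either gene was not tested. Dlx6os1, near Dlx5, also had more reads in libraries labelled ko/ko (3, 0, 3 and 3 against 0, 0, 2 and 0), none of them above 3.

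Among the 4 libraries labelled ko/ko, that of 24 h stood apart from the others in Alpl and in Dlx3. Its gap in CPM to the next library took up 0.938 of the whole range for Alpl and 0.992 for Dlx3, past Dixon's critical value for 4 samples. The groups examined in this way were 15 (each member and genotype with a library above 3 reads), and chance would single out about 1 group in 20. On a log2 scale, where 10 groups with a median of at least 10 counts could be examined, none stood apart, and the value for Alpl was 0.72. Dlx3 in the libraries labelled ko/ko, with its low counts, was not among those 10 groups.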

How the results depend on the processing

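The number of members called at the adjusted limit, 2, became 0 with all 8 libraries, 0 with all 8 libraries and the culture time as a block, and 1 with at least 10 counts in every library, where Sp7 and Dlx3 were no longer tested and the unadjusted count was 1 too. It became 3, Sp7 being added, with the block over 6 libraries, DESeq2, library size only and no filter. Leaving out each library gave 0 to 3 members. For all genes, the 287 calls became 0 with all 8 libraries (463 at the unadjusted limit), 1109 with the culture time as a replicate block, 37 with the block over all 8 libraries, 659 with DESeq2 and 144 with at least 10 counts in every library. Leaving out each library gave 9 to 378, with 9 and 14 calls without the 48 h ko/ko and fx/fx libraries, 90 and 88 without those of 6 h, and 159 without the 72 h fx/fx library. For the time trend, 0 calls became 1 with all 8 libraries, 4 with hours in place of log2 hours and 986 with DESeq2, 2 of them members, and leaving out each library gave 0 to 196, with 0 to 1 member (Alpl without the 48 h ko/ko library, adjusted p = 0.0496). The block changed the call of no member other than Sp7 over the 6 libraries. Sparc ranged from -0.0849 (without the 6 h ko/ko library) to 0.273 when each library was left out, and the slope difference of Dlx3 was reversed, from 0.08 to -0.38, with all 8 libraries. The cause of these changes was not tested. With 1 library per genotype and time, Dlx5, Dmp1, Dspp and Ibsp were within a few reads of the floor of 3 counts in most libraries. Whether depth or absent expression lies behind their low counts was not tested.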

Other observations

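The protein-coding genes nearest to the members on mm9 were also examined. Rap1gap, a GTPase regulator that ends 11866 bases from Alpl, had 380, 223, 383 and 194 reads in the fx/fx libraries (6, 24, 48 and 72 h in order) and 136, 329, 123 and 37 in the libraries labelled ko/ko, a log2 fold change over 6 libraries of -1.58 (adjusted p = 0.191, edgeR's quasi-likelihood test). Ece1, an endothelin-converting enzyme 65853 bases from Alpl on the other side, had a log2 fold change of -0.88 (adjusted p = 0.117). Neither neighbour of Alpl passed the adjusted limit, and Rap1gap passed the unadjusted one, where 4.04% of all genes were lower.

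Dlx4, a homeodomain gene 15160 bases from Dlx3, had 30, 22, 36 and 8 reads in the fx/fx libraries and 20, 25, 32 and 7 in the libraries labelled ko/ko. Its log2 fold change was -0.20 with an SE of 0.66, beside the -6.83 of Dlx3, and the difference between the genes was not tested. Pkd2, the gene after Spp1, had a log2 fold change of -0.48 (adjusted p = 0.487, edgeR), and Atox1, the gene next to Sparc, one of -0.00321 (adjusted p = 0.997).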
